A study of Mus musculus with 2 samples.

Results

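The CIDE and perilipin proteins coat the lipid droplets in which cells store neutral lipid, and their transcripts were examined here in the livers of mice on a diet that induces steatosis. The 10 genes *Cidea*, *Cideb*, *Cidec*, *Plin1*, *Plin2*, *Plin3*, *Plin4*, *Plin5*, *G0s2* and *Hsd17b13* were taken by symbol from a table of 45777 genes, and they account for 30 of its 129299 transcripts. The set was chosen by measured values, the strong falls of *Cidea* and *Cidec* between these same libraries, so every difference between the libraries given below is a description of the values that led to the choice and not a test. Of the 10 genes, 9 had at least 10 estimated counts in at least 1 library, as did 15857 of all genes, and *Plin1* was listed at 0 in both.

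C57BL/6 mice, of the substrain C57BL/6 N by the study's methods, were put on a high-fat diet (HFD) at an age of 7 weeks and kept on it for 18 weeks. At week 13, 5 weeks before the end, they received into the retro-orbital sinus either AAV-GFP, which encodes green fluorescent protein and serves as the control, or AAV-*Wee1-AS*, which encodes the long noncoding RNA transcribed antisense to *Wee1*. Both groups thus carried a virus and both were fed the HFD. The study reports that liver weight and hepatic lipid were lower with AAV-*Wee1-AS* than with AAV-GFP in HFD-fed mice. AAV-*Wee1-AS* was of the AAV9 serotype with a CMV promoter, which is not confined to hepatocytes. Poly-A RNA of whole liver was sequenced, and 1 library per group was analysed, although the series describes its design with 4 liver samples. Whether mice were pooled is not stated. The control library held 55466182 estimated counts and the AAV-*Wee1-AS* library 48079335. With 1 library per group, there is no spread between mice and no p-value. The 95% intervals given below cover counting error only, which leaves out other error, as PCR copies of a molecule are counted separately and mice differ from each other.

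In the liver, triglyceride is stored in droplets that bud from the endoplasmic reticulum and are bounded by a single layer of phospholipid. CIDE proteins bring droplets into contact and let lipid pass from the smaller to the larger, and CIDEB also takes part in loading lipid onto very-low-density lipoprotein. *Cidea* and *Cidec* are genes of adipose tissue that the steatotic liver switches on. Perilipins cover the droplet surface and control the access of lipases. PLIN1 and PLIN4 are mainly adipocyte proteins, PLIN2 is the major coat protein of the fatty hepatocyte, PLIN3 is expressed widely, and PLIN5 links droplets to mitochondria in oxidative tissues. G0S2 inhibits the triglyceride lipase ATGL (gene *Pnpla2*), and HSD17B13 is a droplet enzyme of hepatocytes.

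*Cidec* is transcribed from alternative start sites, and the table divides its counts between them, so the DNA upstream of both is shown. The sequences are those of RefSeq on GRCm38.p6, the build also called mm10, read 5′ to 3′ on the minus strand. Capitals mark the 30 bases next to the transcript start that the table lists. The first lies before the start at position 113434870 of chromosome 6, used by transcript variant X1, and spans chr6:113434871-113435014. The second lies before the start at position 113435760, used by transcript variants 1 and 2, and spans chr6:113435761-113436010.
Internal start of *Cidec*: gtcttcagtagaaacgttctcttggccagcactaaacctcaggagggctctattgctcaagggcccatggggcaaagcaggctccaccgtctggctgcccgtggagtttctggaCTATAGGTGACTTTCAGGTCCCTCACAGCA
Upstream start of *Cidec*: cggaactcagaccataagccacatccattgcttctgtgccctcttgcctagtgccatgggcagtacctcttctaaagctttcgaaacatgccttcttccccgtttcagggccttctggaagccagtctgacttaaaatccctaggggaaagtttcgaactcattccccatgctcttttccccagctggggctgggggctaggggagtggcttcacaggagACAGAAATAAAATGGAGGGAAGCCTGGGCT

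The table assigned nearly all counts of *Cidec* to the internal start in both livers. Variant X1 held 7660 of 7683 counts with AAV-GFP, a share of 99.7% (exact binomial 95% interval 99.6 to 99.8), and 1229 of 1236 with AAV-*Wee1-AS*, a share of 99.4% (98.8 to 99.8). The upstream start held 23 counts with AAV-GFP and 7 with AAV-*Wee1-AS*. All 3 transcripts end at the same 3′ position, so this split rests on how the authors' program divided shared reads, and with so few counts at the upstream start the shares are given as a description only. The GENCODE M21 annotation of the same build has a transcript that begins near the internal start, at position 113434764. Its first coding base lies further upstream and its coding sequence is 10 codons longer than that of the transcripts that begin at the upstream site. The start of variant X1 in the table lies 106 bases upstream of this GENCODE start, and 890 bases downstream of the start of variants 1 and 2.

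A RefSeq promoter table on GRCm38.p6 gives windows of 250 bases before to 50 after each of its start sites, and 11 windows of the members, which leave out *Cidea*, were searched on both strands for 5 short motifs. The internal *Cidec* window of that table is placed on position 113434764, so it holds only the 144 bases shown before the start of variant X1. Neither *Cidec* window held any of the motifs. The nuclear receptor half-site AGGTCA was found in 4 of the 11 windows (*Hsd17b13*, *Plin2* and both of *Plin5*) and in 16.3% of all 32851 windows. The E-box CACGTG, to which factors such as ChREBP, MLX and MYC can bind, was found only in the window of *Plin2*, with its first base 4 bases before the start, and in 7.15% of all windows. The box CCAAT was in 4 of the 11 (*Plin2*, *Plin3*, *Plin4* and a window of *Plin5*) against 37.4% of all, the core TGACG of the cAMP response element in 2 (*G0s2* and *Hsd17b13*) against 20.8%, and TATAAA in 1 (*Cideb*) against 13.6%. The window of *Plin4*, chr17:56109733-56110032, is likewise not placed on a start listed for its transcripts. The start at position 56109948 held 73.8% of the *Plin4* counts with AAV-GFP. The windows of *Plin5* overlap, and these matches describe letters and not bound sites.

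Levels of different genes were compared per length, in TPM, a unit that corrects for transcript length and library size. In the AAV-GFP library *Plin2* had the highest level of the set, 1270 TPM, which placed it at rank 113 of all genes. *Cideb* followed with 586 TPM, *Hsd17b13* with 390 TPM and *G0s2* with 223 TPM. *Cidec* had 129 TPM, *Plin3* 71.6 TPM, *Plin5* 50.8 TPM, *Cidea* 46.5 TPM and *Plin4* 16.8 TPM. In the AAV-*Wee1-AS* library *Plin2* was again highest, with 724 TPM and rank 179. *Hsd17b13* with 389.9 TPM and *Cideb* with 389.5 TPM were next and nearly equal, and *G0s2* had 273 TPM. *Plin5* had 33.0 TPM and *Plin3* 32.0 TPM. *Cidec*, with 24.4 TPM, now stood below both of these perilipins. *Plin4* had 9.88 TPM, and *Cidea*, with 5.88 TPM, was the lowest of the detected members.

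**Figure D1:**
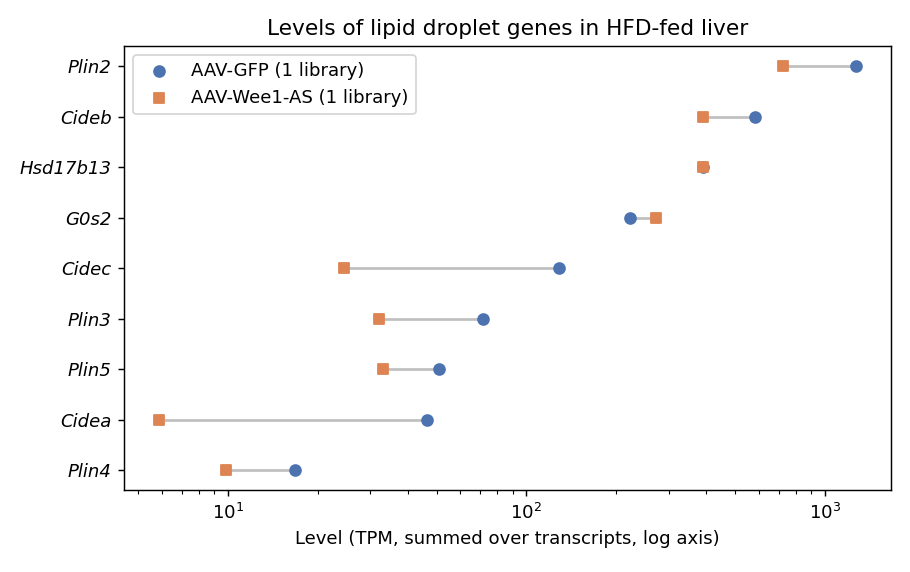
Level of each detected gene in TPM, summed over its transcripts, on a log axis, with 1 point per library (circles AAV-GFP, squares AAV-*Wee1-AS*) and a grey line joining them. The longest lines are those of *Cidea* (46.5 to 5.88 TPM) and *Cidec* (129 to 24.4 TPM), while the points of *Hsd17b13* coincide.

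The make-up of the CIDE family differed between the libraries more than that of the perilipins. The falls of *Cidea* and *Cidec* that led to the choice of the set fix this contrast, so nothing is read from it. The 3 CIDE genes summed to 761 TPM with AAV-GFP and to 419.8 TPM with AAV-*Wee1-AS*. *Cideb* held 77.0% of the first sum and 92.8% of the second, *Cidec* 16.9% and 5.81%, and *Cidea* 6.11% and 1.40%. The 5 perilipins summed to 1409 TPM and 798.7 TPM, and *Plin2* held 90.1% and 90.6% of these sums. The shares of *Plin3* were 5.08% and 4.01%, those of *Plin5* 3.60% and 4.14%, and those of *Plin4* 1.19% and 1.24%.

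For differences between the libraries, the log2 ratio of the AAV-*Wee1-AS* value over the control value was taken from scaled counts with a prior count of 2, and a gene was called when its ratio was below 0.5 or above 2. Of the 9 measured members, 3 fell below 0.5-fold and 0 rose above 2-fold, while 8.71% of all genes past the count filter were below 0.5-fold and 22.2% were above 2-fold. The whole interval lay below 0.5-fold for the same 3 genes, and for 3.72% of all genes. The median log2 ratio of the 9 members was -0.74, and that of all genes was -0.02. Since strong falls of *Cidea* and *Cidec* led to the choice of the set, nothing is read from its count or median.

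*Cidea* (chromosome 18, 67343564 to 67367794) had 1784 counts with AAV-GFP and 192 with AAV-*Wee1-AS*. It thus fell to 12.9% of the scaled control level, with a log2 ratio of -2.94 (95% counting interval -3.17 to -2.74). Only 0.681% of all genes had a lower ratio. *Cidea* is represented by 1 transcript, and its locus overlaps that of the noncoding gene *B430212C06Rik*, which had 115 and 22 counts (log2 ratio -2.04, -2.85 to -1.46). The libraries were stranded, but whether strand was used in counting is not given in the sources used here.

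*Cidec* (chromosome 6, 113424634 to 113435760) fell from 7683 counts to 1236, or 19.3% of the scaled control level. Its log2 ratio was -2.37 (-2.46 to -2.29), and 1.64% of all genes had a lower one. When only curated transcripts were counted, which leaves out variant X1 and so nearly all of the gene, and the scaling was fitted on those transcripts, the log2 ratio was -1.22 from the 23 and 7 counts of the upstream start. *Cideb* (chromosome 14, 55754052 to 55758424), the CIDE gene of the healthy hepatocyte, had 22693 and 12786 counts. Its log2 ratio of -0.56 (-0.60 to -0.53) did not pass 2-fold and lay far above those of the other two. Other genes that overlap members had ratios both near to and apart from theirs. Over *Cideb*, *Nop9* had 2574 and 1400 counts and a log2 ratio of -0.61, and *Ltb4r2* had 53 and 47 counts and a log2 ratio of 0.09 (-0.51 to 0.68). Over *Cidec*, *LOC115490364* had 95 and 63 counts (-0.32, -0.81 to 0.15). Over *Plin2*, *LOC101055843* had 35 and 18 (-0.64, -1.60 to 0.16), and over *Plin4*, *Hdgfl2* had 1533 and 1046 (-0.29, -0.40 to -0.17).

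Among the perilipins, *Plin3* (chromosome 17, 56278962 to 56290511) was the only one past 2-fold. It fell from 5089 counts to 1929, or 45.5% of the scaled control level, and its log2 ratio was -1.14 (-1.21 to -1.06), the nearest to the limit among the members inside it. *Plin2* (chromosome 4, 86626910 to 86670217) was the nearest outside it. It had 77555 and 37451 counts, the most of the set, and a log2 ratio of -0.79 (-0.80 to -0.77), so the second library stood at 58.0% of the first.

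*Plin4* (chromosome 17, 56100587 to 56109948) had 3464 and 1723 counts and a log2 ratio of -0.74 (-0.83 to -0.66). The adjacent gene *Plin5* (chromosome 17, 56111597 to 56117606) had 3275 and 1799 counts and a log2 ratio of -0.60 (-0.68 to -0.52). The 4 detected perilipins were thus all lower with AAV-*Wee1-AS* by scaled counts, 1 of them past 2-fold, although *Plin5* changes sign when the GC and length trends are removed. *Plin1* (chromosome 7, 79721164 to 79732904) had 0 counts on all 3 of its transcripts in both libraries, which allows up to 0.0541 CPM with AAV-GFP and 0.0624 CPM with AAV-*Wee1-AS*, the values of 3 counts after division by the library total.

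*G0s2* (chromosome 1, 193272160 to 193273188) was the only measured member whose interval lay wholly above 0 on the log2 scale. It had 6194 counts with AAV-GFP and 6422 with AAV-*Wee1-AS*, a log2 ratio of 0.32 (0.27 to 0.37) that did not pass 2-fold. *Hsd17b13* (chromosome 5, 103955442 to 103977388) had 16521 and 13977 counts and a log2 ratio of 0.02 (-0.01 to 0.05), the only interval of the 9 that held 0. The other 7 measured members, *Cidea* to *Plin5* in the order above, had ratios below 1 and intervals wholly below 0 on the log2 scale, while 50.5% of all genes had a ratio below 1.

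**Figure D2:**
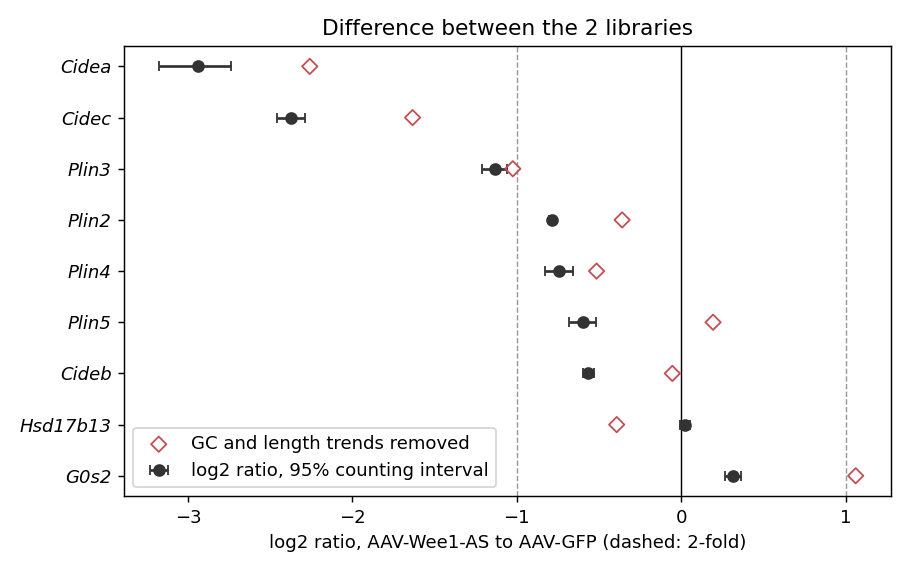
log2 ratio of AAV-*Wee1-AS* over AAV-GFP for the 9 measured genes (filled circles, with bars for the 95% counting interval) and the same ratio after the trends with GC and length had been removed (open diamonds), with dashed lines at 2-fold. *Cidea*, *Cidec* and *Plin3* lie left of the lower limit on both measures, *Plin5* changes sign, and *G0s2* moves from 0.32 to 1.06.

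Genes of higher GC content had lower ratios (Spearman coefficient -0.67 across the 14995 genes with a GC value, 94.6% of those tested), and 8 of the 9 members had a GC content above the median of all genes, 49.8%. Genes are not independent replicates, so the coefficient carries no p-value. *Cidea* (GC content 55.6%), *Cidec* (56.5%), *Plin4* (55.9%) and *G0s2* (56.4%) belonged to the same of 10 equal groups of genes by GC content, group 9, in which the median log2 ratio was -0.61 and 18.7% of genes were below 0.5-fold. *Cidea* and *Cidec* lay far below that median, *Plin4* lay near it, and *G0s2* lay above it. *Plin5*, with 58.9%, belonged to the group of highest GC content, whose median of -0.69 was lower than the value of *Plin5* itself. *Plin2* (52.1%) and *Cideb* (53.1%) shared a group with a median of -0.33, *Plin3* (51.1%) was in one with -0.12, and *Hsd17b13* (45.9%) in one with 0.72.

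Once the GC and length trends were removed, 3 members remained below 0.5-fold, again *Cidea* at -2.26, *Cidec* at -1.63 and *Plin3* at -1.02, against 8.52% of all genes. *G0s2* was above 2-fold at 1.06, as were 7.42% of all genes. *Plin4* was at -0.51, *Hsd17b13* at -0.39, *Plin2* at -0.36, *Cideb* at -0.05 and *Plin5* at 0.19. *Cideb* thus stood near 0, *Plin5* above it and *Hsd17b13* below it. How far GC content and transcript length account for the ratios of single genes was not tested.

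**Figure D3:**
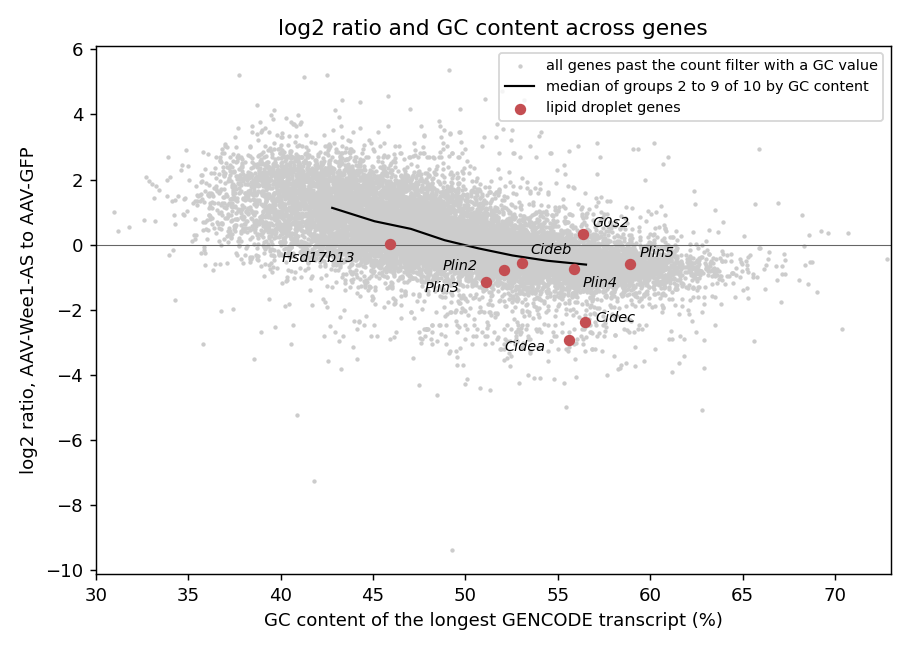
log2 ratio of AAV-*Wee1-AS* over AAV-GFP against GC content in percent for 14995 genes (grey) and the 9 measured lipid droplet genes (red), with a black line through the medians of GC groups 2 to 9 of 10. *Cidea* and *Cidec* lie well below the line at their GC content, *G0s2* lies above it, and *Plin4* (-0.74 at 55.9%) and *Plin5* (-0.60 at 58.9%) lie near its right end.

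The counts of a gene are the sums of those shared out to its transcripts, so the ratios of single transcripts belong to the values that led to the choice and are likewise a description. *Plin2* has 3 transcripts. The curated one held 49706 of the counts with AAV-GFP and 25853 with AAV-*Wee1-AS*, shares of 64.1% (63.8 to 64.4) and 69.0% (68.6 to 69.5). Variant X2 held 18.8% and 21.5%. Variant X1, which extends 3′ beyond the others, held 13294 counts and 3547, shares of 17.1% (16.9 to 17.4) and 9.47% (9.18 to 9.77). Its log2 ratio was -1.64, against -0.68 for the curated transcript, so variant X1 alone passed 2-fold.

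In *Plin5*, both curated transcripts were lower, with log2 ratios of -0.82 for variant 1 (2022 and 953 counts) and -0.84 for variant 2 (1170 and 545 counts). The model variants ran the other way. Variant X1 rose from 76 counts to 252, from a share of 2.32% (1.83 to 2.90) to one of 14.0% (12.4 to 15.7), and variant X2 rose from 7 counts to 49. The transcripts of *Plin5* overlap, as do those of *Plin2*, so their counts and shares rest on how the authors' program divided shared reads. The intervals leave out the error of that split.

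*Plin4* was divided between 10 transcripts with counts. The curated one had 906 and 661 counts, a log2 ratio of -0.19 (-0.34 to -0.04), and its share was 26.2% with AAV-GFP and 38.4% with AAV-*Wee1-AS*. Variant X3 had 980 and 59 counts, and its log2 ratio was -3.75 (-4.19 to -3.41). Variants X4 (449 and 116 counts, -1.67) and X1 (228 and 62 counts, -1.59) also fell past 2-fold, and variant X10 had 13 counts and 0, at least 3.61-fold lower against 3 counts in the AAV-*Wee1-AS* library. The noncoding variant X8 rose from 28 counts to 225, and variant X7 had 0 counts and 80, which makes it at least 32.0-fold higher against a floor of 3 counts in the AAV-GFP library. Most of these variants share their start and end positions, so their counts rest on how the authors' program divided shared reads, and a split of such reads is less certain than the sum of the gene. *Hsd17b13* was nearly all 1 transcript, variant 1, with 99.8% and 99.9% of counts. *Cidea*, *Cideb*, *Plin3* and *G0s2* have 1 listed transcript each.

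**Figure D4:**
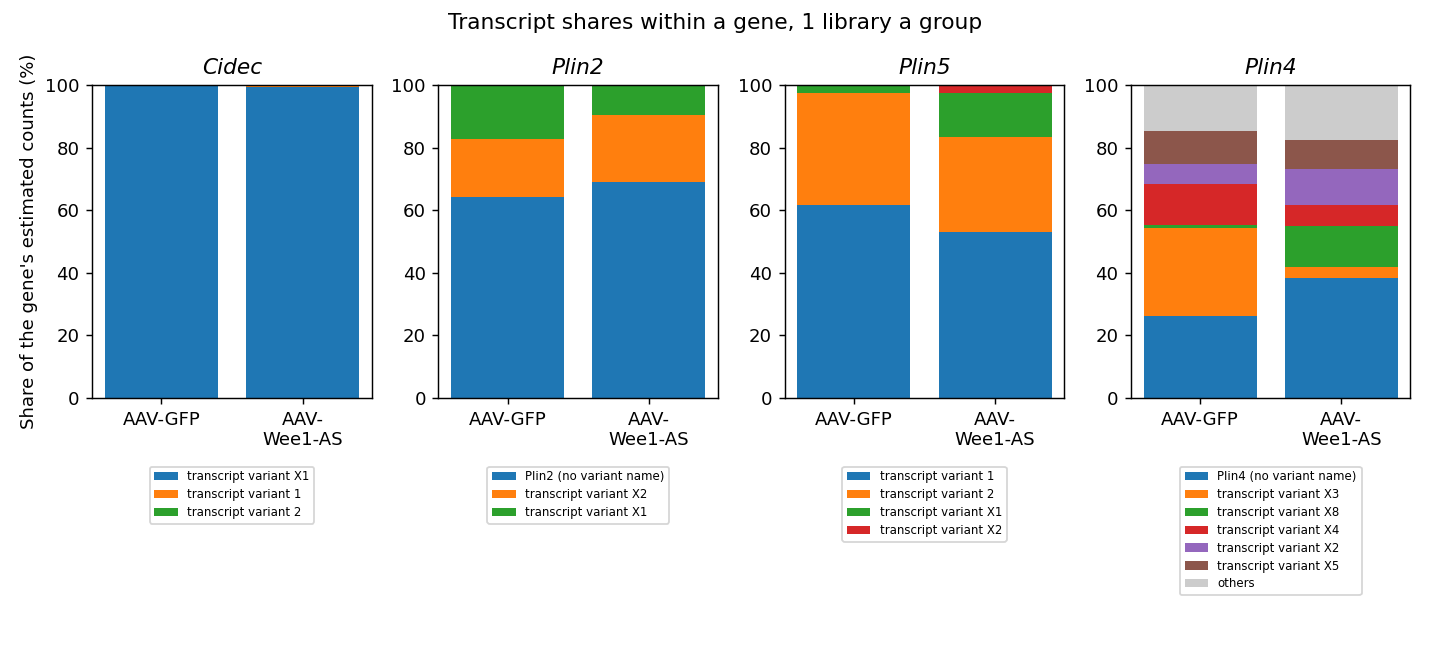
Share of the estimated counts of a gene, in percent, held by each of its RefSeq transcripts in the AAV-GFP and the AAV-*Wee1-AS* library (1 stacked bar per library, transcripts after the 6 with the largest shares joined in grey). *Cidec* is a single transcript at 99.7% and 99.4%, the share of *Plin2* variant X1 is 17.1% and then 9.47%, and the segments of *Plin4* are rearranged.

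The genes that work beside these proteins were read from lists that exclude the members, again by count and median and with the same background of 8.71% of genes below 0.5-fold and 22.2% above 2-fold. Of 18 genes of other droplet proteins, 17 were measured, 0 were below 0.5-fold and 3 were above 2-fold, with a median log2 ratio of 0.09 and a range from -0.71 to 1.69. Those 3 were *Rab18*, a small GTPase of the droplet surface, which rose from 1015 counts to 2724 (log2 ratio 1.69), and the acyl-CoA synthetases *Acsl4* (581 and 1467 counts, 1.60) and *Acsl3* (377 and 907 counts, 1.52). All 3 have a low GC content, from 39.0% to 43.2%, and with the trends removed their values were -0.01, 0.03 and 0.50.

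Of 9 genes of droplet lipolysis, 1 was below 0.5-fold, 0 were above 2-fold, and the median was -0.35. *Pnpla3*, a droplet lipase whose human counterpart carries a well-known steatosis risk allele, fell from 137 counts to 50 (log2 ratio -1.16, -1.69 to -0.71). With the trends removed it was at -0.38 and no longer past 2-fold, and the gene below 0.5-fold was then *Lipa*, the lysosomal acid lipase, at -1.33 against -0.16 before. *Pnpla2*, the lipase that G0S2 inhibits, had 5543 and 3122 counts, and *Abhd5*, the ATGL coactivator held by perilipins, had 1375 and 1212. Their log2 ratios were -0.56 and 0.08, and both changed sign with the trends removed, to 0.14 and -0.48. Both were named after their values had been seen, as partners of the members.

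Of 13 genes of triglyceride synthesis, 2 were below 0.5-fold and 0 were above 2-fold. The median was -0.45, and 0.02 with the trends removed. The monoacylglycerol acyltransferase *Mogat1*, known to be induced in steatotic liver, fell from 1272 counts to 405 (log2 ratio -1.38, -1.55 to -1.22), and it was at -1.53 with the trends removed. *Mogat2* fell from 36 counts to 9 (log2 ratio -1.56), and at -0.86 it was not past 2-fold with the trends removed.

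The nuclear receptors PPARγ and PPARα control several of the members in liver, among them *Cidea*, *Cidec*, *Plin2* and *Plin5*. Of 11 measured genes of PPARγ and its steatosis targets, 1 was below 0.5-fold (*Mogat1*) and 1 above 2-fold (*Acsl1*, 33910 and 56580 counts, log2 ratio 1.00 and -0.04 with the trends removed). The median was 0.21, and -0.24 with the trends removed. *Pparg* itself had 1022 and 877 counts, a log2 ratio of 0.04 (0.20 with the trends removed). *Cd36*, the fatty acid transporter, had 4083 and 6052 counts. Its log2 ratio of 0.83 changed sign to -0.47 with the trends removed. Of 16 genes of PPARα and its targets, 1 was below 0.5-fold and 0 above 2-fold, with a median of -0.13. *Fgf21*, a hepatokine, fell from 367 counts to 144 (log2 ratio -1.08, -1.37 to -0.80), and with the trends removed it was at -0.46. *Ppara* had 15638 and 22836 counts (0.81, and 1.00 with the trends removed). *Creb3l3*, a liver transcription factor known to act on *Cidec* in liver, had 23985 and 14053 counts. Its log2 ratio of -0.51 changed sign to 0.17 with the trends removed. *Pparg*, *Cd36*, *Ppara* and *Creb3l3* were named after their values had been seen.

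In whole tissue, fewer cells of a type and less RNA per cell cannot be told apart. Adipocyte markers were read because *Cidea*, *Cidec* and *Plin4* are also fat cell genes. Of 13 adipocyte markers, 8 were measured, 1 was below 0.5-fold and 0 above 2-fold, and the list summed to 146743 counts with AAV-GFP and 169375 with AAV-*Wee1-AS*, most of which were *Car3* and *Thrsp*, genes that hepatocytes also express. The list was mixed. *Lep*, *Acvr1c* and *Slc7a10* had 0 counts in both libraries, *Adipoq* had 2 in each, and *Retn* had 0 and 4. *Lipe* (1417 and 1433 counts), *Cfd* (492 and 431), *Fabp4* (399 and 408) and *Adrb3* (102 and 64) were detected in both and did not pass 2-fold. *Aoc3*, with 22 and 6 counts, was the gene below 0.5-fold. All but *Aoc3* were named after their values had been seen, and the part of fat cells in the values of the members was not tested. Of 7 markers of brown adipocytes, 4 had 0 counts in both libraries, among them *Ucp1*, and 1 of the 3 measured was below 0.5-fold (*Cox7a1*, 118 and 38 counts, log2 ratio -1.33 and -0.53 with the trends removed), with summed counts of 4495 and 4233.

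Hepatocyte markers showed the labelled tissue in both libraries, with *Alb* at 37459 TPM and 53289 TPM. Of 10 hepatocyte markers, 0 were below 0.5-fold and 2 above 2-fold (*Apob*, log2 ratio 1.82, and *Cps1*, 1.21, which were at 0.09 and 0.44 with the trends removed), the median was -0.04, and the sums were 5733672 and 5543366 counts. Macrophages also store lipid in droplets coated by PLIN2. Of 10 Kupffer cell and macrophage markers, 2 were below 0.5-fold and 3 above 2-fold, with a median of -0.27 and sums of 33409 and 21244 counts. *Gpnmb* fell from 831 counts to 62 (log2 ratio -3.44) and *Trem2* from 322 to 62 (-2.08), both genes of lipid-laden macrophages. Among the genes of resident Kupffer cells, *Vsig4* (1.52), *Timd4* (1.40) and *Marco* (1.60) rose, while *Clec4f* was at -0.15 (7220 and 5418 counts) and *Cd5l* at -0.76 (13953 and 6876 counts), so these genes did not move together. With the trends removed, *Marco* (2.22) stayed above 2-fold, and *Vsig4* (0.89) and *Timd4* (0.74) did not. *Clec4f* was then at 0.22 and *Cd5l* at -0.42. *Clec4f* and *Cd5l* were named after their values had been seen. *Gpnmb* and *Trem2* were lower in the same library as *Cidea* and *Cidec*, and the part of macrophages in the values of the members was not tested.

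**Figure D5:**
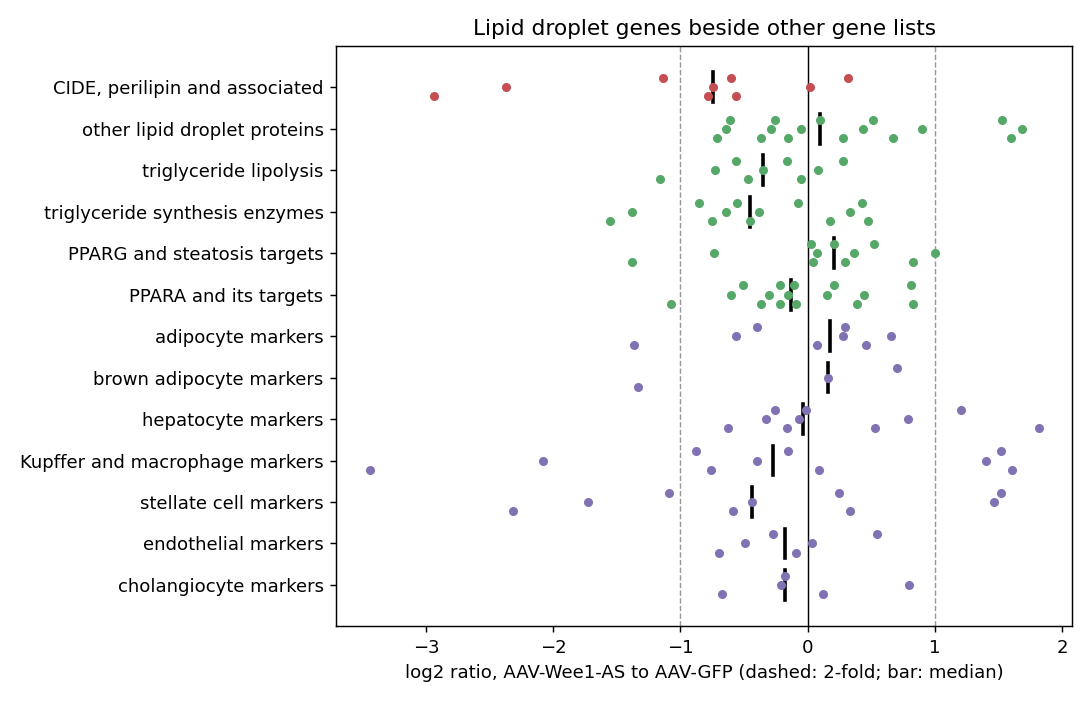
log2 ratios of AAV-*Wee1-AS* over AAV-GFP for the measured genes of each list, with 1 point per gene, a black bar at the median and dashed lines at 2-fold (red the CIDE, perilipin and associated genes, green lipid gene lists, purple cell type markers). The median of the red row, -0.74, lies to the left of the medians of the other lists, which range from -0.45 to 0.21, but the red genes were chosen for low values. With the GC and length trends removed (not drawn), the red median was -0.39, near that of stellate cell markers, -0.35.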

How the data were processed

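Livers of HFD-fed mice were profiled by RNA sequencing, with 1 library per vector. Adaptor trimming, alignment and quantification were done by the authors, whose processing notes name Trimmomatic 0.38, HISAT2 2.1.0, SAMtools 1.9, StringTie 2.1.3b and the build mm10. The authors deposited an estimated count, an FPKM value and a TPM value per RefSeq transcript and library. The estimated counts deposited are whole numbers that are not normalized and are shared out between overlapping transcripts. FPKM values deposited by the authors are scaled to transcript length and library, and TPM values deposited by the authors sum equally in each library. The members and gene lists were chosen with earlier results of these data known.

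Counts were summed per symbol and scaled by TMM (edgeR 4.0.16, R 4.3.3; factors 1.02 and 0.980). Genes with at least 10 counts in 1 library were kept, and log2 ratios used a prior count of 2. Exact (Clopper-Pearson) 95% intervals were computed from the counts of both libraries. Where a library had 0 counts, 3 counts served as the floor. GC content came from the longest GENCODE M21 transcript of a symbol, and the trends with GC content and length were removed by lowess (statsmodels 0.14.6, span 0.3, 5 cycles). Named genes were all members and, of each list, the genes past 2-fold (at most 6) or else the 2 most abundant. *Alb*, *Car3*, *Thrsp*, *Ucp1*, *Lipa* and *Dcn* fall outside this rule and were named after their values had been seen, as were the genes so marked in the text. With 2 libraries no gene was named for a pattern like that of a member. The steps were tested on simulated data. The alternatives tried were scaling by library totals, by the upper quartile or by DESeq2 1.42.0 size factors, a prior count of 0.5, no count filter or 10 counts in both libraries, TPM and FPKM values with a pseudocount of 1, curated transcripts or the most abundant transcript only (each scaled anew), removal of the trends, and counts per kilobase for the order of levels. Motifs and windows were chosen after the values of the members had been seen. *Ldaf1* of the droplet list was not analysed here.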

Additional observations from a re-analysis of the deposited data

How the results depend on the processing

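The count of members below 0.5-fold was 3 under each of the 11 alternatives, and that above 2-fold was 0 in all but the removal of the GC content and length trends, where it was 1 (*G0s2*). The changes of the count filter left the ratios of the measured members as they were, so they could not alter these counts. Over the alternatives the log2 ratio ranged from -3.15 to -2.26 for *Cidea*, from -2.58 to -1.22 for *Cidec*, from -1.34 to -1.02 for *Plin3*, from -0.99 to -0.36 for *Plin2*, from -0.95 to -0.15 for *Plin4*, from -0.77 to -0.05 for *Cideb* and from 0.11 to 1.06 for *G0s2*. It changed sign for *Plin5* (-0.81 to 0.19) and *Hsd17b13* (-0.39 to 0.06). Upper quartile scaling moved the median of all genes to -0.22, and it raised the count below 0.5-fold from 2 to 3 for both triglyceride synthesis and macrophage markers. The order of levels was the same per kilobase of the most abundant transcript. The count above 2-fold in the PPARγ list was 0 with library totals, the upper quartile or the trends removed. With the trends removed, the count above 2-fold was 0 for other droplet proteins, hepatocyte and stellate cell markers and 1 for the PPARα, adipocyte, brown adipocyte and macrophage lists, and the count below 0.5-fold was 1 for triglyceride synthesis and cholangiocyte markers and 0 for the PPARα and brown adipocyte lists. The median of the members moved to -0.39 with the trends removed. List medians that changed sign with the trends removed were those of triglyceride synthesis (0.02), the PPARγ list (-0.24) and other droplet proteins (-0.04). Those of hepatocyte (0.21) and cholangiocyte markers (0.09) did so as well. Upper quartile scaling changed the sign of the medians of other droplet proteins (-0.11), the PPARγ list (-0.001), adipocyte markers (-0.03) and brown adipocyte markers (-0.05). The cause of these shifts was not tested. No paired analysis was possible because each group had 1 library, and for the same reason no replicate could be left out.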

Other observations

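Other cell types of the liver were read from the same marker lists. Of 9 stellate cell markers, 3 were below 0.5-fold with AAV-*Wee1-AS* and 2 were above 2-fold, with a median log2 ratio of -0.44 and summed counts of 15294 and 11530. The 3 genes that fell were *Col1a1* (3620 and 603 counts, log2 ratio -2.32), *Acta2* (331 and 82 counts, -1.73) and *Pdgfrb* (1129 and 441 counts, -1.09). *Lrat*, which loads retinyl esters into the droplets of resting stellate cells, rose from 267 counts to 617 (1.46), and *Hgf* rose from 118 to 285 (1.52). With the trends with GC content and length removed, *Lrat* was at 0.06 and *Hgf* at 0.25, and *Pdgfrb*, at -0.89, was not past 2-fold. *Col1a1* (-2.01) and *Acta2* (-1.63) stayed below 0.5-fold, and *Dcn* joined them at -1.17, against 0.33 before. Of 6 endothelial markers, 0 passed 2-fold in either direction, with a median of -0.18, and *Stab2* had 4488 and 3103 counts and *Clec4g* 3222 and 1903. Of 5 cholangiocyte markers, 0 passed 2-fold, with a median of -0.18, and *Spp1* had 1900 and 1365 counts and *Sox9* 96 and 140.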
